A study of Mus musculus with 4 samples.

Results

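The genes described here are 10 markers of motor neurons and of neurons that have left the cell cycle, chosen by name: the motor neuron and spinal cord factors Mnx1, Isl1, Isl2, Lhx3 and Lhx5, and the neuron genes Tubb3, Dcx, Stmn2, Elavl3 and Elavl4. Of the 18224 genes that the arrays named, 9 of these 10 were represented, by 12 probes in all, and all 9 were among the 13584 genes tested. The expression of Mnx1 was not analysed here. The samples were 2 RNA samples from Jmjd3-/- embryos, replicates 1 and 9, and 2 from wild-type embryos, replicates 3 and 4, all of posterior embryo tissue at E9.5, from crosses between mice heterozygous for Jmjd3. The gene is now called Kdm6b, and its product removes repressive methyl groups from histone H3. The sources used here describe neither the Jmjd3 allele nor whether a sample held 1 embryo or several, and p-values therefore measure only the spread between these samples, which may be technical. Each RNA sample was labelled with Cy3 and hybridised to 1 single-colour Agilent array.

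Motor neurons form in the ventral part of the neural tube and send axons to muscle. Progenitors there switch on Isl1, Lhx3 and Mnx1 as they stop dividing, and a complex of Isl1 and Lhx3 is known to drive motor neuron genes in the mouse and chick spinal cord. Young neurons of most types then make neuronal tubulin, microtubule-binding proteins such as doublecortin and stathmin-2, and the neuronal RNA-binding proteins of the Elavl family. At this stage neurogenesis runs from front to back along the neural tube, so the posterior embryo holds both undifferentiated tail bud and the first spinal neurons.

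Below, a pair of values for Jmjd3-/- gives replicate 1 and then 9, and a pair for wild-type gives replicate 3 and then 4. The arrays had similar brightness, with 75th percentiles of 578 to 603 for Jmjd3-/- and 599 to 627 for wild-type, and 59.8% to 63.0% of probes well above background. All shared 1 slide, on which the Jmjd3-/- arrays lay at the ends, so slide position and genotype cannot be told apart. Kdm6b had a processed intensity of 770 and 622 in the Jmjd3-/- samples, against 2648 and 2940 in the wild-type samples (log2 difference −1.96, SE 0.12; limma adjusted p = 0.149); whether the probe lies in the altered part of the gene is unknown here. Intensities are in arbitrary units and are comparable between arrays for 1 probe, not between probes. Log2 differences subtract the wild-type mean from the Jmjd3-/- mean, once every array has been scaled to its 75th percentile, and their SE is the moderated one of limma with n = 2 per genotype.

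Most of the neuron genes gave weaker signals in Jmjd3-/- embryos. Of the 9 measured genes, 8 had a lower mean in Jmjd3-/- and 1, Lhx5, had a higher mean, and the median log2 difference was −1.13, against −0.01 over all genes tested, of which 53.1% were lower. Among the 7 genes well above background on all 4 arrays, Elavl3, Tubb3, Isl2, Elavl4 and Stmn2 had log2 differences of −1.91, −1.34, −1.13, −0.81 and −0.56, and the Isl1 difference of −0.18 had a 95% interval that included 0. Lhx3 and Dcx were too dim in Jmjd3-/- for a place in this order. None of the 9 passed an adjusted p under 0.05 over all genes (limma with Benjamini-Hochberg adjustment), where 5 of 13584 genes, 0.0368%, passed; the adjusted p of the 9 lay between 0.323 and 0.574. The 5 were H2-Bl, Vmn1r6 and Gm8267, which were higher, and Barx1 and Gcg, which were lower. Of the 5, only 1 higher and 1 lower gene were well above background on all 4 arrays, and Gcg was not. At an unadjusted p under 0.05 there were 7 lower and 1 higher, where 5.93% of all genes were lower and 5.15% higher, 11.1% in all. Lists of other young neuron genes and of proneural genes also had more members lower than higher, with 21 of 32 and 13 of 18 lower. At an unadjusted p under 0.05 (limma) the proneural genes had 4 lower and 4 higher. Lists of other cells went the same way, with 9 of 9 second heart field and pharyngeal, 8 of 9 erythroid and 5 of 6 glial genes lower. By contrast, 8 of 12 notochord and floor plate genes and all 17 tail bud genes were higher. In whole tissue, fewer neurons and less RNA per neuron cannot be told apart.

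**Figure D1:**
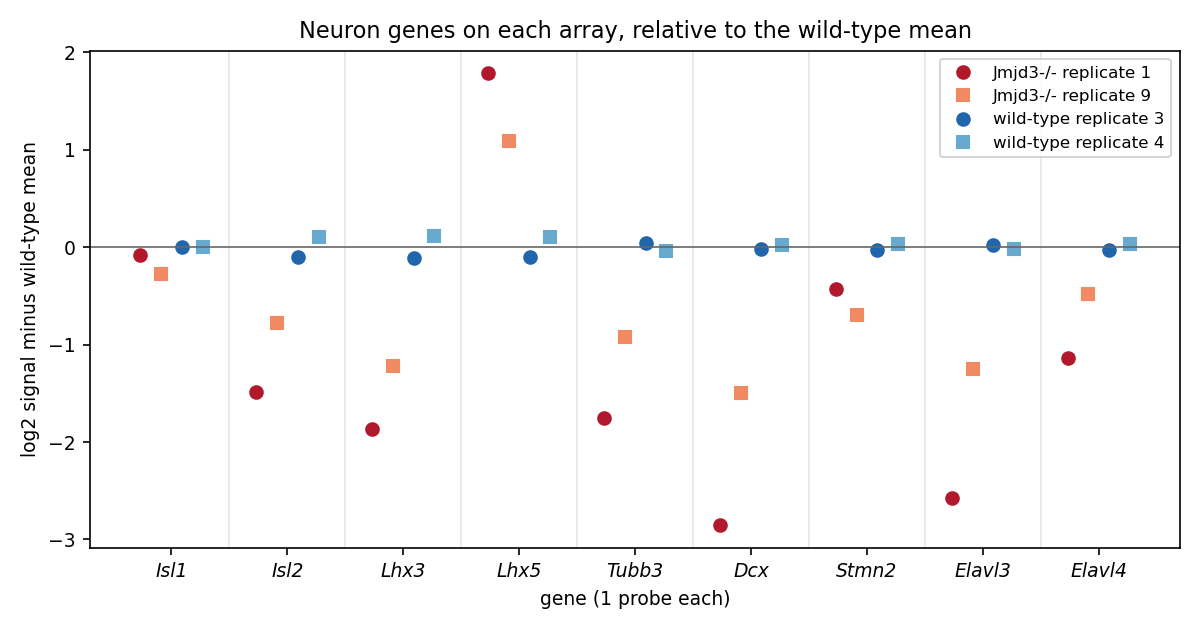
Log2 signal of each measured neuron gene on each array minus the wild-type mean of that gene, with 1 point per array and the Jmjd3-/- arrays to the left of the wild-type arrays. For all 9 genes the Jmjd3-/- points lie on 1 side of both wild-type points, below them except for Lhx5, and the Jmjd3-/- points are further apart than the wild-type points.

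The arrays of the genotypes did not overlap for any of the 9 genes, with 8 lower and 1 higher. Over all genes tested, the arrays did not overlap for 46.8%, with 23.7% lower and 23.0% higher. Lhx3 and Dcx passed the filter on dim probes through the wild-type arrays alone, so a lower signal in Jmjd3-/- was built into their passing, and the same holds for genes of the lists below that were not well above background in Jmjd3-/-. Of the 7 genes well above background on all 4 arrays, 6 were lower without overlap, where 22.8% of the 13112 genes that passed that filter were; 5 were lower and 1 higher at an unadjusted p under 0.05 in the limma fit of all genes, and their median was −0.81.

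The wild-type arrays were close to each other for these genes and the Jmjd3-/- arrays were not. The gap between wild-type replicates 4 and 3 was 0.003 to 0.23 on the log2 scale, and that between Jmjd3-/- replicates 1 and 9 was 0.19 to 1.36 and was the wider of the pair for all 9 genes, as it was for 71.0% of all genes tested. Replicate 1 was further from the wild-type mean than replicate 9 for 7 of the 9, the exceptions being Isl1 and Stmn2, and it was further for 67.8% of all genes tested. The median of the 9 genes against the wild-type mean was −1.49 in replicate 1 and −0.78 in replicate 9, and it was −0.04 and 0.02 over all genes. The genotype difference was wider than the gap between the Jmjd3-/- arrays for 8 of the 9, all but Isl1, and for 39.1% of all genes.

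**Figure D2:**
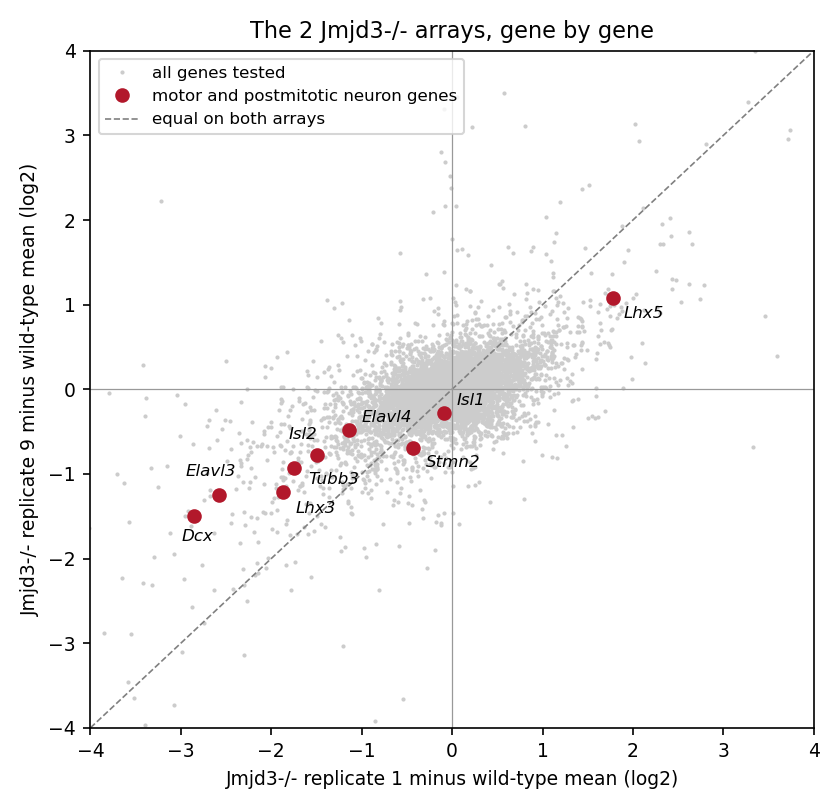
Log2 signal in Jmjd3-/- replicate 1 (horizontal axis) and Jmjd3-/- replicate 9 (vertical axis), each minus the wild-type mean, for all 13584 genes tested (grey) and the 9 neuron genes (red); 15 genes lie outside the axes, which end at 4. Both axes share the wild-type mean, and 8 neuron genes lie below 0 on both, 6 of them above the dashed line of equality because replicate 1 was lower, with Lhx5 alone above 0 on both.

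Promoter sequences of 8 of the 10 genes were in the RefSeq promoter table (GRCm38.p6), as 13 windows of 300 bases that run from 250 bases before to 50 bases after a transcription start. The 8 include Mnx1, whose expression was not analysed here, and lack Lhx5 and Stmn2. The file headers name an older build for the array design, so these windows are matched to genes by symbol only. Across the 13 windows the median ratio of observed to expected CpG was 0.68, against 0.38 over all 32851 windows in the table; it was 1.05 for Isl1 and 0.92 for Elavl3, and 0.22 and 0.20 for the windows of Dcx. The 8 genes thus span a range from CpG-poor to CpG-rich promoters. Whether this ratio goes with the differences between genotypes was not tested. The windows of Elavl3 (chr9:22051974-22052273, minus strand), Dcx (chrX:143933170-143933469, minus strand), Lhx3 (chr2:26208200-26208499, minus strand) and Isl1 (chr13:116309639-116309938, minus strand) are shown because they span that range and hold 1 match each to a motif named after them other than CANNTG; capitals mark that match.
Elavl3 promoter: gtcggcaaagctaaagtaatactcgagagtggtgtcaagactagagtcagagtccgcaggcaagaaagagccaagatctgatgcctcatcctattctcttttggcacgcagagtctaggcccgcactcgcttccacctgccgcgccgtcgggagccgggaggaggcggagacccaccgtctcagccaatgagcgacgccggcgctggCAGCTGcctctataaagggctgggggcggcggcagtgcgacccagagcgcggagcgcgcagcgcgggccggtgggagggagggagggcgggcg
Dcx promoter: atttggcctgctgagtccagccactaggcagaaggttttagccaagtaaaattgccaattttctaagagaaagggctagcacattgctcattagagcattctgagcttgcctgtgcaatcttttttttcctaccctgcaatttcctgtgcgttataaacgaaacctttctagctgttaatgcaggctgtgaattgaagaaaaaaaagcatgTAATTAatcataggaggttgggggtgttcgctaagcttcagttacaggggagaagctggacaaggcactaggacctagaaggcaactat
Lhx3 promoter: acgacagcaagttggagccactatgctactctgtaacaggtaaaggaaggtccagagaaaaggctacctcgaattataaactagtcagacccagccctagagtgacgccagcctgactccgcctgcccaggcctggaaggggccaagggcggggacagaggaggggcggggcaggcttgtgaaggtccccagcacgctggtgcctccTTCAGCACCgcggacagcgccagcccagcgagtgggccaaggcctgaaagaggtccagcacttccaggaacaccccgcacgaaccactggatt
Isl1 promoter: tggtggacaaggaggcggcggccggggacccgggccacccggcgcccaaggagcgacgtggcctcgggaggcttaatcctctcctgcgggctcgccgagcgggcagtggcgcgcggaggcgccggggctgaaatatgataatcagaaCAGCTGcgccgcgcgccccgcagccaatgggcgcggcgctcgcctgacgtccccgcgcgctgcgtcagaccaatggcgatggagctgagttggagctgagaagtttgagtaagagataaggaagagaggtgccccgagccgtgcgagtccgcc
The motifs searched on both strands were the E-box CANNTG, which neurogenic bHLH factors bind, its form CAGCTG, which is contained in it, the homeodomain core TAATTA, and TTCAGCACC, a part of the RE1 element through which REST represses neuronal genes. CAGCTG was in 5 of the 13 windows, from 4 of the 8 genes, among them Elavl3 and Isl1, and in 16.3% of all windows. TAATTA was in 4 of the 13 windows, from 2 of the 8 genes, Dcx and Elavl4, and in 5.29% of all windows. TTCAGCACC was in 1 of the 13 windows, of Lhx3, and in 0.371% of all windows. CANNTG was in 7 of the 13 windows, from 5 of the 8 genes, and in 72.3% of all windows. A match is a description of these letters, and genes with several windows had more chances of one. Windows of Dcx overlap, as do some of Elavl4, so 1 site can be counted in more than 1 window.

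The LIM homeodomain factors Isl1 and Isl2 are both made by newborn motor neurons, and Isl1 also by sensory neurons, the heart field and the hindlimb field. Isl1 had a processed intensity of 827 and 692 in Jmjd3-/- embryos, against 869 and 913 in wild-type embryos. Its probe was printed as 10 spots on each array, whose log2 values had an SD of 0.03 to 0.06; the Jmjd3-/- arrays were 0.19 apart. The log2 difference of −0.18 (SE 0.10, n = 2 per genotype; limma adjusted p = 0.574) had a 95% interval of −0.47 to 0.10, and it was −0.28 without Jmjd3-/- replicate 1 and −0.08 without replicate 9. Isl2 had 387 and 606 in the Jmjd3-/- samples, against 1006 and 1209 in the wild-type samples. Both Jmjd3-/- samples lay below both wild-type samples, at a mean 45.5% of wild-type on the normalised scale (log2 difference −1.13, SE 0.28, 95% interval −1.92 to −0.35; limma adjusted p = 0.357).

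Lhx3, which works with Isl1 to specify motor neurons and marks V2 interneurons when Isl1 is absent, was dim on every array. Its intensity was 5.77 and 8.68 in Jmjd3-/- embryos, neither well above background, against 19.3 and 23.7 in wild-type embryos, both well above background. Its wild-type mean was 1.51 times a floor for the Jmjd3-/- arrays, on the normalised scale. The floor on each is the dimmest signal still well above background there, or the gene's own signal if higher. It is taken over all probes, so it is not the detection limit of this probe and sets no minimum for the difference. The fitted log2 difference was −1.54 (SE 0.26, limma adjusted p = 0.323). It was −0.19 with normexp, a background correction that adds an offset and so compresses dim probes.

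Lhx5, a LIM homeodomain gene of dorsal and intermediate spinal interneurons rather than of motor neurons, went the other way. It had 445 and 263 in Jmjd3-/- embryos, against 119 and 145 in wild-type embryos. Both Jmjd3-/- samples were above both wild-type samples, by 2.70-fold on the normalised scale (log2 difference 1.43, SE 0.27, 95% interval 0.65 to 2.21; limma adjusted p = 0.330). Its closest paralog Lhx1, a gene of interneurons, motor neurons and the intermediate mesoderm, was also higher, with 610 and 402 in Jmjd3-/- against 224 and 249 in wild-type (log2 difference 1.12, SE 0.21; limma adjusted p = 0.329). Of the other LIM homeodomain paralogs listed, Lhx9 is given with the interneuron factors, Lhx4, the close relative of Lhx3, had 19.8 and 26.6 in Jmjd3-/- against 41.0 and 46.7 in wild-type, and Lhx2, also an interneuron gene, had 141 and 545 against 1528 and 1912.

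The neuronal tubulin gene Tubb3 was lower in both Jmjd3-/- samples, with 237 and 402 in Jmjd3-/- embryos against 812 and 808 in wild-type embryos. Its probe was also printed as 10 spots, with an SD of 0.03 to 0.07 between the spots of an array; the Jmjd3-/- arrays were 0.83 apart. The Jmjd3-/- mean was 39.6% of wild-type (log2 difference −1.34, SE 0.31, 95% interval −2.22 to −0.46; limma adjusted p = 0.341).

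Dcx encodes doublecortin, which stabilises microtubules in migrating neurons. Of its 3 probes, 1 was well above background on the wild-type arrays, with 12.3 and 30.2 in Jmjd3-/- embryos against 86.9 and 93.9 in wild-type embryos. The Jmjd3-/- samples lay below the wild-type samples, and replicate 1 was not well above background (log2 difference −2.17, SE 0.50, 95% interval −3.59 to −0.76; limma adjusted p = 0.340). The difference was −0.82 with normexp. Neither of the other probes was well above background on any array; their intensities were 3.46 and 3.88 in Jmjd3-/- against 7.36 and 11.6 in wild-type for 1 of them, and 3.22 and 3.64 against 3.34 and 3.29 for the other.

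Stmn2, which encodes a microtubule-destabilising protein of growing axons, had 60.4 and 48.0 in the Jmjd3-/- samples, against 78.8 and 86.6 in the wild-type samples. The groups did not overlap, and here replicate 9 was the lower of the Jmjd3-/- pair. The log2 difference was −0.56 (SE 0.12, 95% interval −0.91 to −0.21; limma adjusted p = 0.335) and −0.29 with normexp.

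Elavl3 and Elavl4 encode the RNA-binding proteins HuC and HuD, among the first proteins made by newborn neurons. Elavl3 had 111 and 267 in Jmjd3-/- embryos, against 667 and 679 in wild-type embryos. Both Jmjd3-/- samples were far below the wild-type pair, at a mean 26.6% of wild-type (log2 difference −1.91, SE 0.49, 95% interval −3.29 to −0.53; limma adjusted p = 0.364), and without replicate 1 the difference was −1.25. Elavl4 had 604 and 911 in Jmjd3-/-, against 1292 and 1408 in wild-type, for its brighter probe (log2 difference −0.81, SE 0.25, 95% interval −1.51 to −0.10; limma adjusted p = 0.411). Its dimmer probe had 70.9 and 112 in Jmjd3-/- against 174 and 179 in wild-type, and differed by −0.93 (SE 0.28 in the fit of every probe), so both probes had the same sign; without replicate 1 the difference of the brighter was −0.48. Elavl2, the third neuronal member of the family, differed by −0.09 (SE 0.08), and the widely expressed Elavl1 by 0.08 (SE 0.07).

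**Figure D3:**
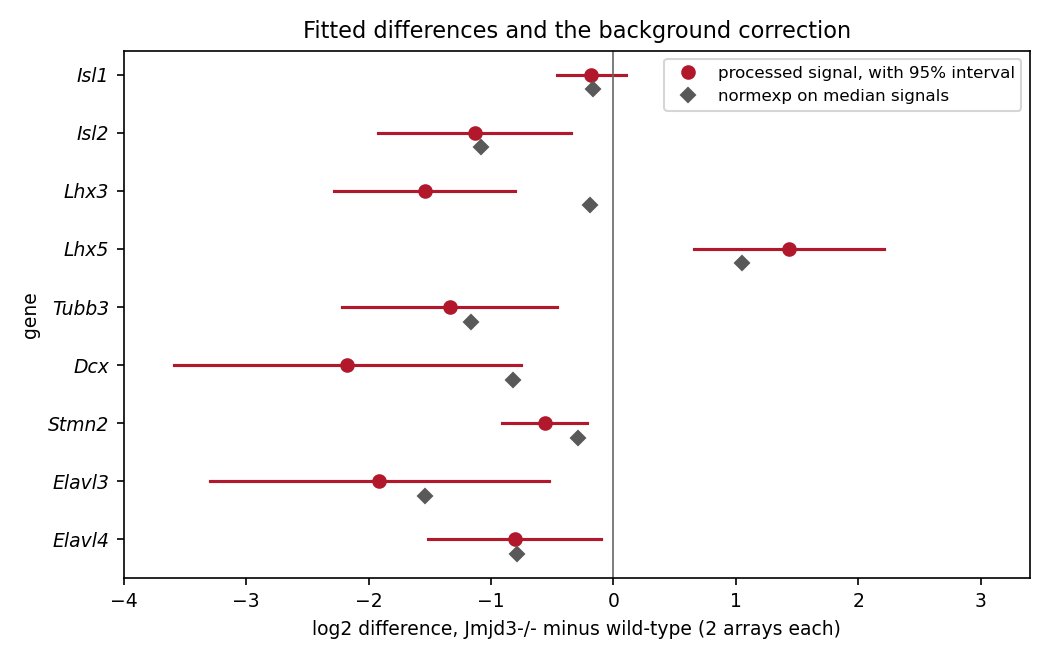
Fitted log2 difference, Jmjd3-/- minus wild-type, of the 9 genes, with the 95% interval from limma (red) and the value with normexp background correction (grey diamonds), n = 2 arrays per genotype. The interval of Isl1 includes 0, Lhx5 alone is above 0, and normexp brings the dim genes Lhx3, Dcx and Stmn2 to −0.19, −0.82 and −0.29.

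Leaving out 1 array moved these calls. Without Jmjd3-/- replicate 9, Tubb3, Dcx and Elavl3 passed as lower, each with a limma adjusted p of 0.047, against a range of 0.047 to 1.00 over all alternatives, where 0.883% of all genes tested passed as lower. That fit has 1 Jmjd3-/- array, replicate 1, which is assumed to vary like the wild-type pair. Its p-values therefore hold no spread between Jmjd3-/- samples. For Dcx that array was not well above background, and Dcx passed the filter on dim probes through the wild-type arrays alone. The median of the 9 genes was −1.49 without Jmjd3-/- replicate 9 and −0.78 without Jmjd3-/- replicate 1, and 8 of 9 were lower whichever array was left out.

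Other genes of the same lineage were read from fixed lists. Of 20 further motor neuron genes, 15 were tested and 13 were lower in Jmjd3-/- (median −0.37), where 53.1% of all genes tested were lower. There were 0 past the adjusted threshold, and 6 lower and 0 higher at an unadjusted p under 0.05 (limma). Over all genes tested, 5.93% were lower and 5.15% higher at that p. Of the 15 motor neuron genes, the 14 well above background on all 4 arrays included 12 lower (median −0.34), with 5 lower and 0 higher at that p. Of the 13112 genes that passed that filter, 52.5% were lower, with 677 lower and 653 higher at that p. Onecut2, a factor of newborn motor neurons, had 161 and 150 in Jmjd3-/- against 290 and 302 in wild-type (log2 difference −0.87, SE 0.07; limma adjusted p = 0.152). Gfra1, a receptor for a motor neuron survival factor, had a wild-type mean 1.46 times the floor described for Lhx3. Neither Jmjd3-/- array was well above background for it. It is among the 6 lower and passed the filter through the wild-type arrays alone, so it is not among the 14. Chat, Slc18a3 and Slc5a7, the genes of acetylcholine synthesis and transport that mark mature motor neurons and are named after their values were seen, were not well above background on both arrays of either genotype.

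Of 40 further genes of young neurons, 32 were tested. Of the 32, 21 were lower and 11 higher (median −0.31), where 53.1% of all genes tested were lower, and 0 passed the adjusted threshold. At an unadjusted p under 0.05 there were 11 lower and 4 higher (limma), where 5.93% of all genes tested were lower and 5.15% higher. The 29 that were well above background on all 4 arrays had 18 lower and a median of −0.16, with 9 lower and 4 higher at that p. Of all genes that passed that filter, 52.5% were lower. The zinc finger genes St18 and Myt1, active as neurons differentiate, had wild-type means 1.86 and 3.57 times the floor described for Lhx3. Neither Jmjd3-/- array was well above background in either case. Both are among the 11 lower and passed the filter through the wild-type arrays alone, so they are not among the 29. Map2, a microtubule-associated protein gene of dendrites, had 85.1 and 90.0 in Jmjd3-/- against 125 and 133 in wild-type (log2 difference −0.51, SE 0.09), and Cntn2, an adhesion gene of growing spinal axons, differed by −0.60 (SE 0.11). The 4 higher at that p were Thy1, Ncam1, Chga and Nova1, named after their values were seen. They differed by 1.26 (SE 0.32), 0.70 (SE 0.19), 0.62 (SE 0.17) and 0.25 (SE 0.08).

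Among 18 tested proneural and neurogenic genes, 13 were lower and 5 higher (median −0.22), where 53.1% of all genes tested were lower, and 0 passed the adjusted threshold. At an unadjusted p under 0.05 there were 4 lower and 4 higher (limma), where 5.93% of all genes tested were lower and 5.15% higher. The 16 well above background on all 4 arrays had 11 lower (median −0.19), with 2 lower and 4 higher at that p. Insm1, a factor of cells about to become neurons, had a wild-type mean 3.14 times the floor described for Lhx3. For the neuronal bHLH gene Neurod4 it was 1.93 times that floor. Neither Jmjd3-/- array was well above background in either case. Both genes are among the 4 lower and passed the filter through the wild-type arrays alone, so they are not among the 16. Dll1, a Notch ligand gene that is also expressed in presomitic mesoderm, differed by 1.00 (SE 0.22). Neural progenitor genes had a median of −0.31 over 22 genes, which was −0.58 in Jmjd3-/- replicate 1 and 0.06 in replicate 9.

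Lists for other neurons and for partner proteins had medians nearer 0. Spinal interneuron factors were evenly divided, with 6 of 12 lower (median −0.02) and values from −3.84 for Lhx9 to 1.47 for Evx1. Evx1 is also in the list of tail bud progenitor genes. Sensory neuron and dorsal root ganglion genes had 6 of 12 lower (median 0.02), and the proteins that bind LIM domains had 6 of 10 lower (median −0.02), with the LIM-only gene Lmo1 at −0.98 (SE 0.23). Paralogs of the 10 genes, such as the other tubulins, doublecortin-like kinases and stathmins, had 10 of 18 lower (median −0.05), and all 18 were well above background on all 4 arrays.

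**Figure D4:**
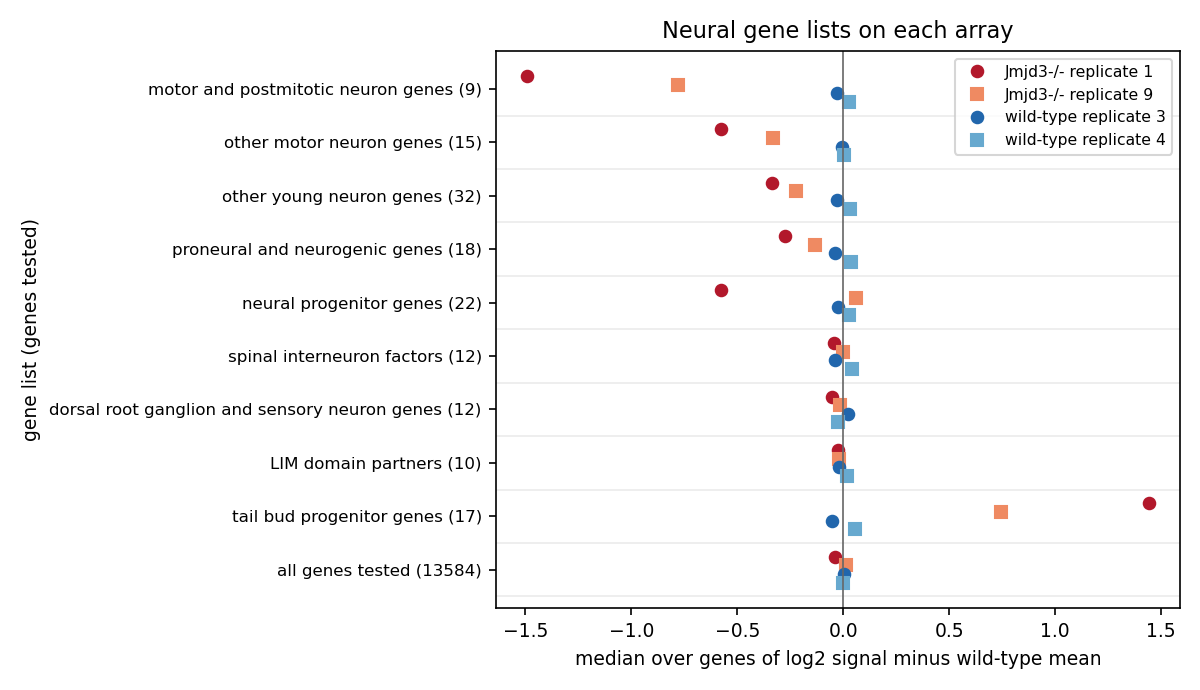
Median over the tested genes of each list of the log2 signal minus the wild-type mean, with 1 point per array and the number of genes tested in brackets. The motor and postmitotic neuron genes lie at −1.49 and −0.78 in Jmjd3-/- replicates 1 and 9, tail bud genes at 1.44 and 0.74, and all genes tested at −0.04 and 0.02.

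Some marker lists of other tissues also differed between the genotypes and others overlapped. All 17 tail bud progenitor genes were tested and higher in Jmjd3-/-, with 0 past the adjusted threshold. At an unadjusted p under 0.05 there were 14 (limma), where 5.15% of all genes tested were higher. The mean normalised log2 level of the list was 0.95 and 0.29 in Jmjd3-/- embryos, against −0.52 and −0.44 in wild-type embryos. All 9 genes of the second heart field and pharynx, a site of Isl1 expression, were lower. Their mean level was −3.12 and −3.02 in Jmjd3-/- against −2.35 and −2.46 in wild-type. The hindlimb field list, which also holds the forelimb gene Tbx5, had 6 of 7 lower, at −0.03 and 0.26 against 0.48 and 0.40. Tbx5 had the lowest difference of that list, −1.05 (SE 0.16). The hindlimb gene Pitx1 was higher, by 0.23 (SE 0.07). Tbx4, named after its values were seen, differed by −0.03 (SE 0.36), and its arrays overlapped. Erythroid genes were lower in 8 of 9 cases, but their mean levels overlapped, at 1.75 and 2.16 in Jmjd3-/- against 2.10 and 2.61 in wild-type. Genes of pancreas and gut, where Isl1 is also made, had 4 of 9 lower and a median difference of 0.01. The hormone gene Gcg in that list was called as lower (limma adjusted p = 0.0228). Its wild-type mean was 12.2 times the floor described for Lhx3, and it passed the filter through the wild-type arrays alone. The mean level of that list was −1.09 and −1.27 in Jmjd3-/- against −0.63 and −0.57 in wild-type, and overlapped without Gcg, at −0.31 and −0.51 against −0.46 and −0.44. Notochord and floor plate genes had 8 of 12 higher (0.29 and 0.23 against 0.11 and 0.03), and glial genes, of which Gfap was not well above background on any array, had 5 of 6 lower (−1.97 and −1.09 against −0.75 and −0.88). The part of these shifts in the neuron gene differences was not tested.

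The genes whose pattern over the 4 arrays lay nearest to the median pattern of the 9, each centred on its own mean, were found by the smallest root mean square difference. They were Neurod4, Sphk1, Bcl11b, Ddr2, Nkx2-2 and Cdo1, at 0.04 to 0.09 on the log2 scale. Of the 9 genes, Isl2 was nearest to the median pattern, at 0.03, and Lhx5 was furthest, at 1.37. The nearest, Neurod4, had 9.86 and 14.8 in Jmjd3-/- embryos, neither well above background, against 26.2 and 28.8 in wild-type embryos, and Nkx2-2, a factor of ventral progenitors, had 19.5 and 28.1 against 43.7 and 58.7. With 4 arrays in 2 groups many genes share such a pattern.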

How the data were processed

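Total RNA of 4 samples was measured on 4 single-colour arrays. Per the file headers, the deposited intensity of each spot came from Agilent Feature Extraction 10.7.3.1, which corrected it for background and spatial trends without normalisation between arrays. Of 45018 spots, 1639 control spots were left out, and spots of a probe were averaged as log2 values. Each array was scaled to its 75th percentile over 41174 probes. Names came by accession from the RefSeq table of GRCm38.p6 (26690 probes, and 28 by symbol or synonym; 14456 were unnamed). The probe with the highest mean stood for a gene, and testing required it to be well above background on the 2 arrays of either genotype. Genotypes were set against each other by lmFit and eBayes of limma 3.58.1 (R 4.3.3), without covariates, with Benjamini-Hochberg adjustment over 13584 genes, and the fit was tested on simulated data. No file gives a read depth; the number of arrays limits the precision.

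The log2 table deposited for the series had columns that matched the scaled log2 signal centred on the wild-type mean (r from 0.995 to 0.997 across probes; 99.9% of probes within 0.01), and its column medians were −0.02 (Jmjd3-/- replicate 1), 0.05 (Jmjd3-/- replicate 9), 0.02 (wild-type replicate 3) and −0.02 (wild-type replicate 4). No label states its scale, centring or direction, which were read from these values.

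The 10 genes and all lists were chosen with earlier results of these data known, and some genes stand in more than 1 list. Named genes were the 10, Kdm6b, up to 4 tested genes of each list with the smallest p, the 6 nearest in pattern, and any gene past the threshold. Elavl1, Elavl2 and Gfap are named outside this rule, and other exceptions are marked where they stand. The normexp alternative used median signals with an offset of 50, as the files have no mean signal column.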

Additional observations from a re-analysis of the deposited data

How the results depend on the processing

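Of 116 alternative values for the 9 genes, 113 kept their direction and their side of the threshold, and the other 3 were Tubb3, Dcx and Elavl3, which passed without Jmjd3-/- replicate 9. The number of these genes called was 0 with every other alternative and ranged from 0 to 3 over the arrays left out; their median log2 difference ranged from −1.49 to −0.78 over the arrays left out and was −0.79 with normexp. Over all genes, 5 were called, 2 with normexp, 3 with an intensity trend and robust variance, and 0 with quantile normalisation, without the filter on dim probes, with a filter on all 4 arrays and with every probe tested singly. Over the arrays left out that count ranged from 0 to 167, the 167 without Jmjd3-/- replicate 9. With no array left out, an unadjusted p under 0.05 (limma) was reached by 1410 genes with normexp, 1466 with quantile normalisation and 1621 without the filter. It was reached by 1415 with the filter on all 4 arrays and by 2422 of 25056 probes taken singly. The cause of these changes was not tested. Lhx3 and Dcx have no value with the filter on all 4 arrays. Where an array was left out, the lone array of its genotype is assumed to vary like the other genotype. No paired analysis was possible because the genotypes share no replicate number. Low signal over background limits Lhx3 and Dcx, and 2 arrays per genotype limit all values.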
